A study of Oryza sativa with 6 samples.

Results

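Calcium sensors are the proteins through which a plant cell reads a rise in free calcium, and the 92 rice genes described here are the calmodulins, the calmodulin-like proteins (CML), the calcineurin B-like proteins (CBL), the CBL-interacting protein kinases (CIPK) and the calcium-dependent protein kinases (CPK, also written CDPK). They were chosen by name: a gene entered where its symbol or a synonym in the gene table was one of these family names followed by a number. Of the 92 genes, 77 had a probe set on the array, against 17905 annotated genes with one in all, and 69 passed a filter on low signal and were tested. By class there were 3 calmodulins (3 tested), 26 CML genes (20 tested), 9 CBL genes (7 tested), 30 CIPK genes (23 tested) and 24 CPK genes (16 tested).

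The classes differ in how they pass the signal on. Calmodulin and the CML proteins bind calcium through EF-hand loops and have no enzyme activity of their own, so they act by binding other proteins. A CBL protein does the same with one kind of partner, a CIPK, which it activates and brings to a membrane, where the pair regulates ion channels and transporters. A CPK carries the EF-hands and the kinase in 1 protein and needs no separate sensor. In leaves these pathways are known from responses to drought, salt, cold and pathogens.

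The arrays were Affymetrix rice genome arrays, and the RNA came from young leaves of Minghui63, an indica variety, at 11 days of age. The 3 RNAi arrays held leaves carrying a hairpin construct of 412 bp from the 3′ end of the OsSRT1 transcript, a sirtuin gene, taken before lesions appeared. Their titles read transgenic line LM1, LM2 and LM3, and that number is used here as the replicate number; whether it marks independent lines is not stated, nor is the promoter of the hairpin. The 3 control arrays held wild-type Minghui63 leaves. The submitters call the 3 arrays of a group biological repeats, and whether these were separate plants or pools is not stated, so a p-value speaks only of the spread between these samples.

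No gene of the annotation was named SRT1 or SRT2, so the targeted transcript was not analysed here. All RNAi arrays shared 1 wash run and all control arrays another, and the effect of the wash cannot be told apart from that of the construct. Arrays with the same replicate number went through the same module of the fluidics station in both runs, so each of the 3 modules held 1 RNAi and 1 control array. Most leaf markers were bright: the Rubisco activase gene rca had a mean signal of 37579 in RNAi arrays and 38972 in control arrays. The leaf marker RBCS1 was dim, with means of 23.8 in RNAi arrays and 24.1 in control arrays, and was not tested. The 6 leaf marker genes on the array summed to 124594 to 145657 in RNAi arrays and to 138918 to 160347 in control arrays, and the means of all 5 tested ones were lower in RNAi. The 6 markers of dividing cells, mostly PCNA, summed to 538 to 822 in RNAi arrays and 798 to 825 in control arrays. The 3 root markers, mostly the silicon transporter gene Lsi1, summed to 886 to 1448 in RNAi arrays and 1629 to 1839 in control arrays. The 7 seed markers summed to 4070 to 7330 in RNAi arrays and 6196 to 6371 in control arrays. Nearly all of this came from GLB and GLUA2, and the other seed markers were dim and not tested. The 4 tested markers of dividing cells, the 2 of root and the 2 of seed also had lower means in RNAi. No marker was at 0 and none was called; the root silicon transporter gene Lsi2 had a mean of 2.58 in RNAi arrays and 5.73 in control arrays. The part of these cell types in the results was not tested. In whole leaves, fewer cells of a type and less RNA per cell cannot be told apart.

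Signals below are per array, scaled to a common trimmed mean of 500, in arbitrary units that can be set against each other only within a probe set. Log2 differences are RNAi minus control on the log2(signal + 16) scale, which understates the change of dim probe sets, with the standard error of the limma fit over 28597 probe sets, and a gene was called at an adjusted p under 0.05. Among the 69 tested genes 3 fell, CML15, CML27 and CML5, 1 rose, CBL9, and 65 did not pass. The 3 are 4.35% of the tested calcium genes, against 1.01% of all tested probe sets called lower, and the 1 is 1.45%, against 1.09% called higher. At 1 probe set per annotated gene, 201 of 14993 were called lower and 149 higher. A log2 difference of 1 or more in either direction was seen in 3 of the 69 (4.35%), close to the 3.75% of all tested probe sets. None of the 39 tested kinase genes and none of the 3 calmodulins was called by limma or by SAM. An unadjusted p under 0.05 was seen in 9 of the kinases, in no calmodulin and in 17 of the 69 genes (24.6%), as it was in 15.6% of all tested probe sets.

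**Figure D1:**
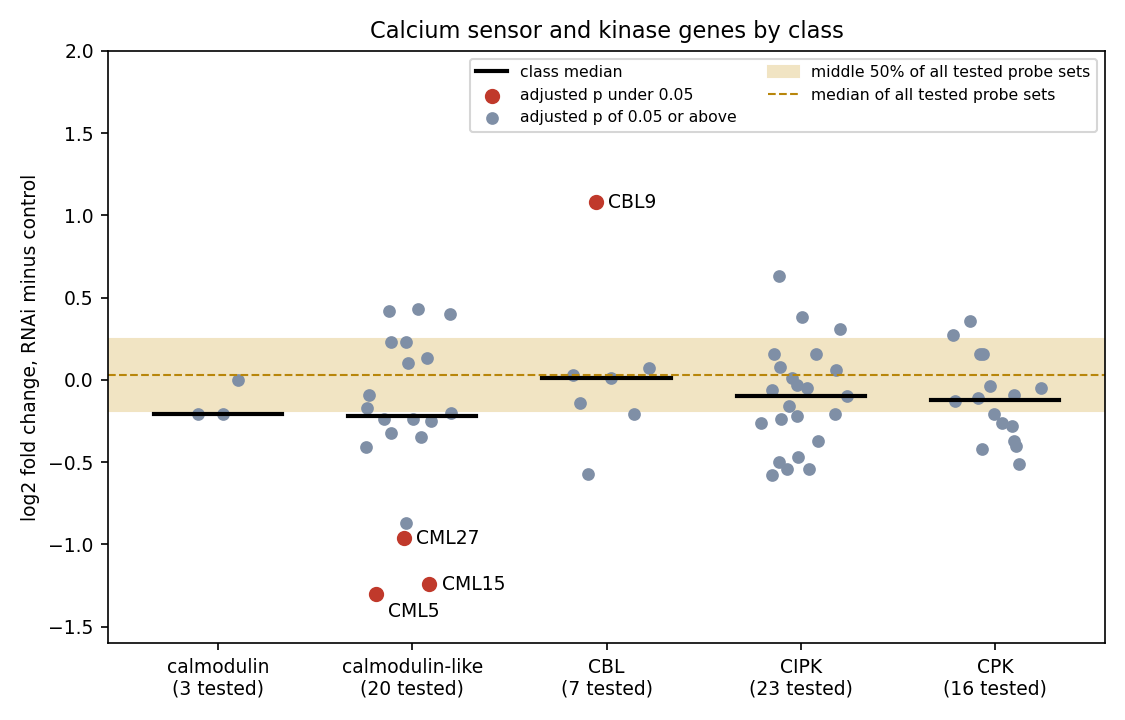
Log2 fold change (RNAi minus control) of each tested calcium sensor and kinase gene, 1 point per gene, in 5 classes; black lines are class medians, the band holds the middle 50% of all 28597 tested probe sets and the dashed line is their median. Red points are the 4 called genes, of which CML27, CML15 and CML5 lie at -0.96 to -1.30 and CBL9 at 1.08.

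CML15, like the other CML proteins a sensor without a kinase domain, fell in RNAi leaves. Its signals were 312, 309 and 340 in the RNAi arrays, against 844, 878 and 639 in the control arrays. The highest RNAi value lay well below the lowest control value, and the RNAi arrays were close to each other (320 ± 17.4, SD, n = 3, against 787 ± 129 in control arrays). The log2 difference was -1.24 ± 0.17 (SE; adjusted p = 0.00780).

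CML27, another sensor of the CML class, also fell. It had 3693, 3436 and 2669 in the RNAi arrays, against 6166, 6325 and 6409 in the control arrays. Here the control arrays were the close ones (6300 ± 123, against 3266 ± 533 in RNAi arrays, SD, n = 3). The log2 difference was -0.96 ± 0.13 (adjusted p = 0.00780). A second, dim probe set of CML27 read 17.5, 140 and 32.1 in RNAi arrays, against 141, 163 and 156 in control arrays. It too kept the groups apart, by a narrow margin in RNAi replicate 2, and its log2 difference of -1.42 ± 0.51 did not pass (adjusted p = 0.220).

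CML5 gave low signals of 69.7, 100 and 93.8 in RNAi arrays, against 230, 217 and 269 in control arrays. The groups did not overlap, and the log2 difference was -1.30 ± 0.22 (adjusted p = 0.0208). The name of this probe set marks it as reading several genes. The probe set specific to CML5 read 89.4, 65.5 and 75.8 in RNAi arrays, against 73.1, 230 and 180 in control arrays, so that control replicate 1 lay among the RNAi values. Its log2 difference was -0.81 ± 0.37 (adjusted p = 0.341), so the call of CML5 came from the probe set that other transcripts can reach.

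CBL9, the calcium sensor of the CBL class that was called, rose. It had signals of 716, 494 and 565 in RNAi arrays, against 320, 299 and 199 in control arrays. All RNAi values lay above all control values, with means of 591 ± 113 and 273 ± 64.7 (SD, n = 3 each) and a log2 difference of 1.08 ± 0.22 (adjusted p = 0.0486). A second probe set of CBL9 also separated the groups, with 491, 461 and 618 in RNAi arrays, against 315, 244 and 339 in control arrays, and had a log2 difference of 0.78 ± 0.19 (adjusted p = 0.0891). Both probe sets are marked as reading several genes, so neither signal can be assigned to CBL9 alone.

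**Figure D2:**
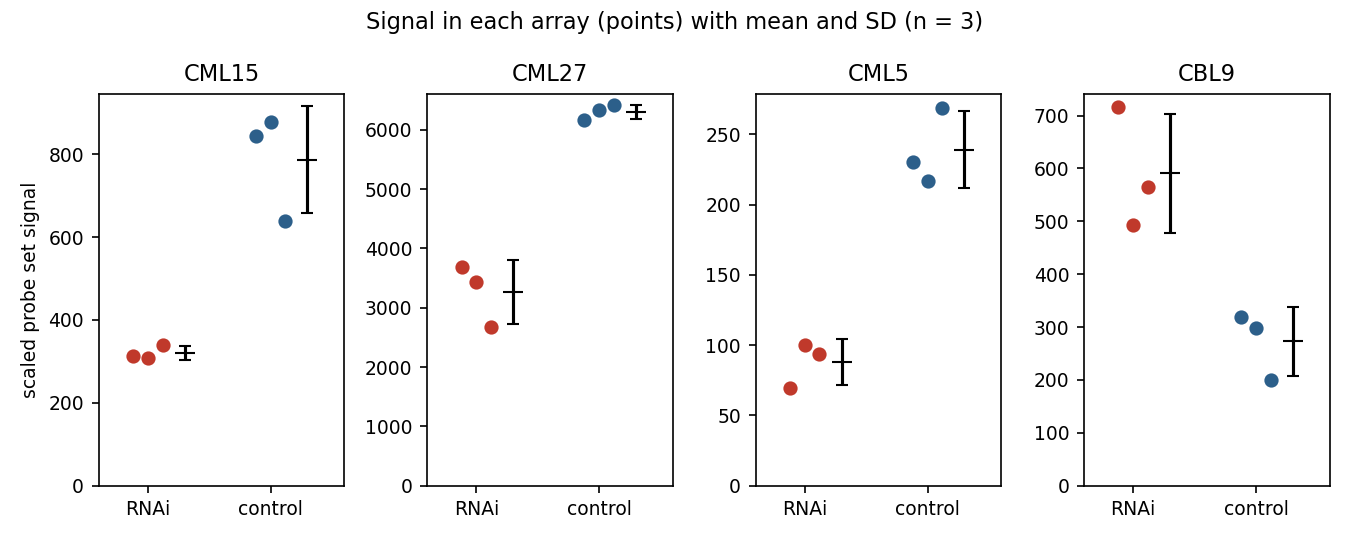
Scaled probe set signal in each array (points) of the 4 called genes, with the mean and SD of 3 arrays beside them; axes start at 0. CML15, CML27 and CML5 are lower in every RNAi array than in every control array, and CBL9 is higher.

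Within the fluidics modules the direction was the same 3 times of 3 for each called gene. This had to be so, since the groups of these genes did not overlap, and it adds no separate check. The log2 differences in modules 1, 2 and 3 were -1.39, -1.46 and -0.88 for CML15 and -0.74, -0.88 and -1.26 for CML27. They were -1.52, -1.0 and -1.38 for CML5 and 1.12, 0.70 and 1.43 for CBL9. With the module as a block in the limma fit, CML15 and CML27 kept their calls (adjusted p = 0.0304 for CML15 and 0.0240 for CML27), and CML5 and CBL9 missed the threshold (adjusted p = 0.0636 for CML5 and 0.0653 for CBL9).

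These calls also differed in how far they rested on single arrays. With each array left out in turn, CML15 and CML27 passed 5 times of 6, and both missed the threshold without control replicate 2 (adjusted p = 0.0570 for CML15 and 0.0520 for CML27). CML5 passed in 2 of the 6, without RNAi replicate 1 and without RNAi replicate 2, and CBL9 in none of the 6 (adjusted p from 0.0723 to 0.141). Without control replicate 2 no calcium gene was called, while 233 probe sets of the whole table still were. Without RNAi replicate 1 there were 6 genes lower, CIPK6, CIPK29 and CML16 joining the 3 CML genes, and none higher. That fit also called more of the whole table, 902 probe sets with 441 lower, against 601 with 289 lower when all arrays were kept.

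**Figure D3:**
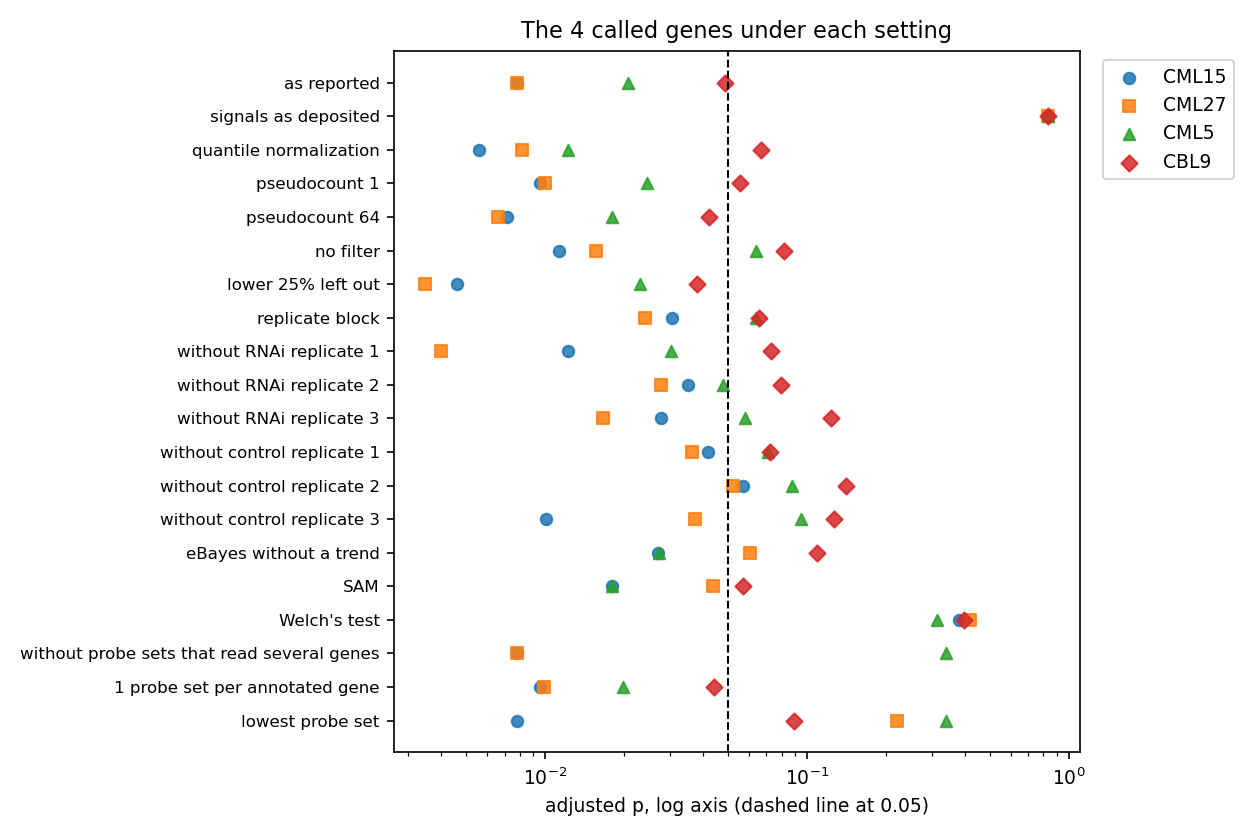
Adjusted p (log axis) of the 4 called genes as reported and under each other setting, including the 6 fits without 1 array; the dashed line marks 0.05. CML15 and CML27 lie left of the line in most settings, and CBL9 lies right of it in each fit that leaves out an array.

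Calmodulin itself, the small sensor that activates many enzymes and channels, had small log2 differences with a class median of -0.21, and none passed. The 3 genes of the class were tested. CAM2 had 2632, 3254 and 2554 in RNAi arrays, against 2662, 3072 and 2694 in control arrays, and its 95% interval ran from -0.30 to 0.29 on the log2 scale. CAM1 had 3085, 3351 and 3343 in RNAi arrays, against 3369, 3690 and 4312 in control arrays, and CAM3 had 7762, 8576 and 7660, against 8722, 9883 and 9180. Both of these kept the groups apart, by less than the width of either group, with log2 differences of -0.21 ± 0.12 for CAM1 and -0.21 ± 0.10 for CAM3 that did not pass (adjusted p = 0.449 and 0.336). The intervals of all 3 lay within 0.5 of no difference on the log2 scale. The gene table gives CAM1 the names CAM1-1, CAM1-2 and CAM1-3 at once, so its signal cannot be given to 1 of these gene copies.

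Besides the 3 that fell, 17 CML genes were tested, 10 with lower and 7 with higher means in RNAi. CML31 came nearest to the threshold, with 1207, 1228 and 706 in RNAi arrays, against 1474, 2076 and 2140 in control arrays. The groups did not overlap, and the log2 difference of -0.87 ± 0.24 did not pass (adjusted p = 0.114). CML7 was the only other CML gene whose groups were apart, with 4206, 3814 and 3963 in RNAi arrays, against 4417, 4801 and 4917 in control arrays, at a small log2 difference of -0.24 ± 0.10 (adjusted p = 0.303).

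At the upper end of the CML class were CML20, CML24 and CML3, with log2 differences of 0.43, 0.42 and 0.40 and adjusted p of 0.543, 0.662 and 0.577. CML20 had 1350, 658 and 695 in RNAi arrays, against 895, 547 and 508 in control arrays, and leaving out 1 array gave log2 differences of 0.10 to 0.68. The same range was 0.03 to 0.81 for CML24, with the lowest value without control replicate 2, and 0.10 to 0.60 for CML3, with the lowest without control replicate 3. CML24 had 153, 87.5 and 98.7 in RNAi arrays, against 146, 38.9 and 78.7 in control arrays, a spread within the control arrays as wide as the gap between the groups. CML3 had 223, 138 and 213 in RNAi arrays, against 185, 163 and 86.6 in control arrays. Within modules 1, 2 and 3 the log2 differences were 0.59, 0.26 and 0.44 for CML20 and 0.06, 0.91 and 0.28 for CML24. For CML3 they were 0.25, -0.21 and 1.16. With the module as a block in the limma fit none of these genes passed (adjusted p = 0.269 for CML20, 0.564 for CML24 and 0.598 for CML3). The gene next to CML3 in the gene table is CIPK32, which had a log2 difference of 0.38 (adjusted p = 0.379), and the array's probe set names place both in 1 transcript cluster, and whether their signals are shared was not tested.

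CML1, which is also named OsCAM61 and is the only member with names of more than 1 class, had 3031, 2292 and 2741 in RNAi arrays, against 2672, 3176 and 3724 in control arrays. These groups overlapped, at a log2 difference of -0.24 ± 0.16 (adjusted p = 0.501). CML16 had 9549 and 10234 in RNAi replicates 2 and 3, against 13793 to 14598 in control arrays, but 14199 in RNAi replicate 1. Its log2 difference was -0.35 ± 0.14 (adjusted p = 0.279). CML10 varied more within the groups than between them, with 7113, 4229 and 4447 in RNAi arrays, against 8748, 4985 and 4391 in control arrays. Replicate 1 was the highest in both groups, and the log2 differences of CML10 within modules 1, 2 and 3 were -0.3, -0.24 and 0.02. The other tested CML genes had log2 differences between -0.41 for CML18 and 0.23 for CML9 and CML29, all with groups that overlapped.

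Among the CBL sensors only CBL9 was called. The class median was 0.01, with 4 of 7 genes higher and 3 lower, and CBL9 was the only gene whose groups did not overlap. This 1 gene is 14.3% of the 7, near the 12.5% of all tested probe sets that lay wholly above. No CBL gene lay wholly below, against 9.88% of all tested probe sets. CBL4, the rice counterpart of the salt tolerance sensor SOS3 of Arabidopsis, had 1219, 771 and 728 in RNAi arrays, against 1306, 934 and 874 in control arrays (log2 difference -0.21 ± 0.23, adjusted p = 0.706). Its kinase partner CIPK24, the counterpart of Arabidopsis SOS2, had 2306, 1631 and 1504 in RNAi arrays, against 1644, 1810 and 1609 in control arrays (0.08 ± 0.17, adjusted p = 0.862). Neither member of this pair differed beyond the spread between arrays, with 95% intervals of -0.73 to 0.31 for CBL4 and -0.30 to 0.46 for CIPK24.

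CBL5 was the lowest of the class, with dim signals of 50.5, 92.9 and 84.7 in RNAi arrays, against 167, 81.2 and 119 in control arrays (log2 difference -0.57 ± 0.32, adjusted p = 0.438). This gene carries the name CBL2 as well, and the gene called CBL2 here is the one with that name alone. CBL6 had 1355, 2440 and 3069 in RNAi arrays, against 2702, 2359 and 2120 in control arrays, so the RNAi arrays lay on both sides of the control arrays. CBL2, CBL3 and CBL10 had log2 differences of 0.03, 0.01 and 0.07. Of these, CBL10 had the wide interval of -0.43 to 0.57, from control arrays that ran from 637 to 1224.

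The CIPK kinases, which the CBL sensors activate, had a median log2 difference of -0.10, with 8 genes higher, 15 lower and a range of -0.58 to 0.63. In 4 of the 23 tested genes (17.4%) every RNAi value lay below every control value, and in none above, where 9.88% of all tested probe sets lay wholly below and 12.5% wholly above. By signal, the share wholly below ran from 6.59% in the dimmest 25% of tested probe sets to 15.2% in the brightest 25%. Whether the CIPK share differs from these was not tested. CIPK17 was the tightest of the 4 genes, with 404, 436 and 435 in RNAi arrays, against 589, 585 and 614 in control arrays (log2 difference -0.47 ± 0.14, adjusted p = 0.151). CIPK25 had 1071, 962 and 983 in RNAi arrays, against 1253, 1326 and 1762 in control arrays (-0.50 ± 0.16, adjusted p = 0.164). CIPK12 had 114, 160 and 138, against 171, 182 and 277 (-0.54 ± 0.25, adjusted p = 0.334), while its second probe set, which was dim, gave -0.04 ± 0.43 with groups that overlapped. None of these passed.

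CIPK23, known in rice and Arabidopsis as the kinase that activates the potassium channel AKT1, was measured by a pair of probe sets that pointed in opposite directions. The brighter one read 1563, 2377 and 1846 in RNAi arrays, against 2720, 2996 and 2594 in control arrays, a log2 difference of -0.54 ± 0.16 (adjusted p = 0.148). The other read 2539, 2480 and 2166 in RNAi arrays, against 2096, 2163 and 2081 in control arrays, a log2 difference of 0.18 ± 0.11 (adjusted p = 0.503). In each of them the groups were apart, in the first with all RNAi values lower and in the second with all RNAi values higher, so no direction can be given for the gene. AKT1 had 991, 1211 and 1085 in RNAi arrays, against 1251, 1346 and 1750 in control arrays, a log2 difference of -0.39 ± 0.16 that did not pass (adjusted p = 0.289), on a probe set marked as reading several genes.

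CIPK29 had the lowest log2 difference of the class. It read 1168, 521 and 355 in RNAi arrays, against 889, 839 and 992 in control arrays. RNAi replicate 1 of CIPK29 lay above all control values and the other RNAi arrays below them, which gave -0.58 ± 0.36 (adjusted p = 0.484) with all arrays and -1.04 ± 0.19 (adjusted p = 0.0258) without RNAi replicate 1. CIPK6 had the same shape, with 3821, 1842 and 1758 in RNAi arrays, against 2568, 2638 and 2844 in control arrays. CIPK31, a stress-induced kinase also named OsCK1, had it too, with 5996, 2706 and 3120 in RNAi arrays, against 3973, 4004 and 3635 in control arrays.

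CIPK18, CIPK32 and CIPK5 were the highest of the class. CIPK18 had 682, 504 and 734 in RNAi arrays, against 368, 321 and 547 in control arrays, where control replicate 3 lay above RNAi replicate 2 (log2 difference 0.63 ± 0.23, adjusted p = 0.232). CIPK32 had 2576, 1574 and 1783 in RNAi arrays, against 1377, 1378 and 1701 in control arrays. CIPK5 had 1140, 921 and 989 in RNAi arrays, against 621, 780 and 1114 in control arrays (0.31 ± 0.21, adjusted p = 0.528). The other tested CIPK genes had log2 differences between -0.37 for CIPK2 and 0.16 for CIPK10 and CIPK14. Among them CIPK14, whose product acts in rice responses to microbial elicitors, had 17345, 16515 and 20999 in RNAi arrays, against 19415, 15259 and 14600 in control arrays, groups that overlapped.

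The CPK kinases join sensor and kinase in 1 protein. Their log2 differences ran from -0.51 to 0.36 around a median of -0.12, with 12 genes lower and 4 higher, and for 15 of the 16 the 95% interval excluded a change of 1 or more on the log2 scale in either direction. For 7 of them it also excluded 0.5. All 16 were left uncalled. In 6 of them (37.5%) every RNAi value was below every control value, and in none above, against 9.88% wholly below and 12.5% wholly above over all tested probe sets and 15.2% wholly below among the brightest 25%.

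Those 6 were CPK3, CPK4, CPK5, CPK7, CPK13 and CPK19. CPK13, a kinase tied to cold and salt tolerance in rice, had 17942, 18287 and 17520 in RNAi arrays, against 22587, 22676 and 20251 in control arrays. The difference was small, -0.28 ± 0.08 on the log2 scale (adjusted p = 0.137), the smallest p of the class. A second probe set of CPK13 read 3626, 4610 and 3114 in RNAi arrays, against 3911, 4177 and 3768 in control arrays, with groups that overlapped (-0.08 ± 0.15, adjusted p = 0.835). CPK5 had 1675, 1694 and 1991 in RNAi arrays, against 2587, 2409 and 2093 in control arrays (-0.40 ± 0.13, adjusted p = 0.191), on a probe set marked as reading several genes. CPK7 had 2368, 3521 and 3707 in RNAi arrays, against 4671, 4674 and 4127 in control arrays (-0.51 ± 0.17, adjusted p = 0.193).

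CPK4, whose overexpression is known to raise salt and drought tolerance in rice, had 8874, 9092 and 8116 in RNAi arrays, against 14912, 11136 and 9486 in control arrays. The RNAi arrays were alike and the control arrays spread widely, giving -0.42 ± 0.15 (adjusted p = 0.233) with all arrays and -0.24 without control replicate 1. CPK3 had 1029, 1175 and 1219 in RNAi arrays, against 1245, 1341 and 1385 in control arrays, and CPK19 had 11762, 11259 and 12273, against 12819, 12339 and 12803. The groups of CPK3 and CPK19 were apart by a small margin, at log2 differences of -0.21 and -0.11.

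At the other end, CPK23, CPK21 and CPK17 had log2 differences of 0.36, 0.27 and 0.16. CPK23, known as the seed kinase SPK, had 395, 663 and 796 in RNAi arrays, against 629, 575 and 266 in control arrays. CPK21, which acts in the salt and abscisic acid response of rice, had 514, 365 and 207 in RNAi arrays, against 293, 303 and 247 in control arrays. In both, the spread within the RNAi arrays was as wide as the gap between the groups. CPK17 had 1657, 1595 and 1665 in RNAi arrays, against 1377, 1405 and 1612 in control arrays (0.16 ± 0.12, adjusted p = 0.560). CPK18, which acts with a MAP kinase in rice blast defence, and CPK24, which acts in cold tolerance, had log2 differences of -0.26 and -0.05 with groups that overlapped. The remaining CPK genes lay between -0.37 for CPK9 and 0.16 for CPK12, and their groups overlapped.

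**Figure D4:**
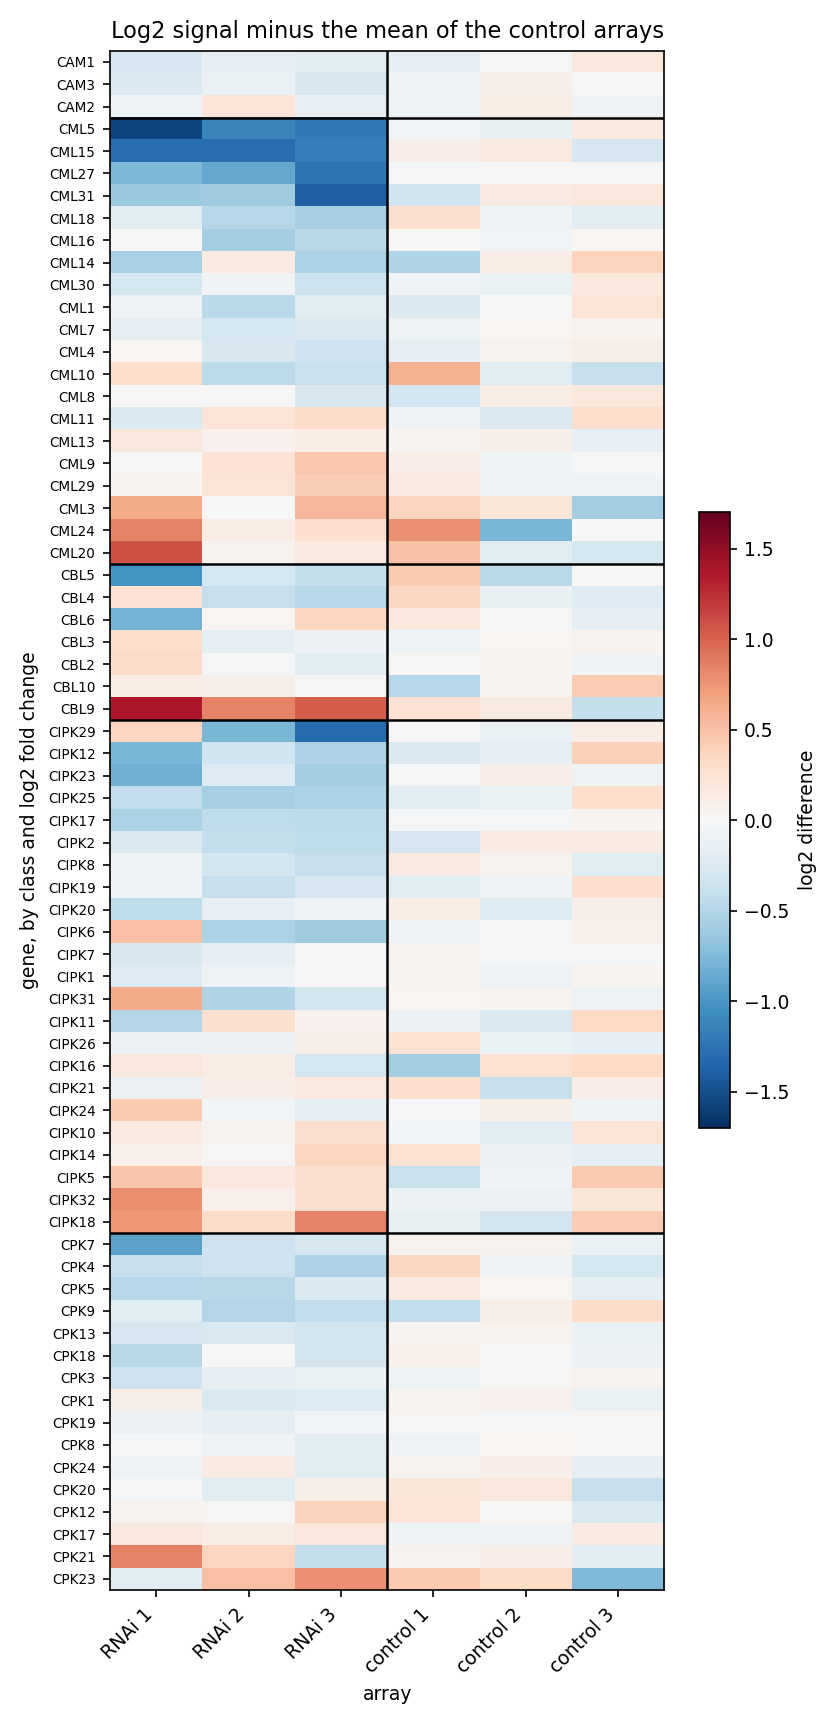
Log2 signal of each tested gene (rows, in the order calmodulins, CML, CBL, CIPK and CPK, and by log2 fold change within a class) minus the mean of the 3 control arrays, for the RNAi arrays at the left and the control arrays at the right. CML5, CML15 and CML27 are lower and CBL9 is higher in all 3 RNAi arrays, and RNAi replicate 1 differs from the other RNAi arrays in CIPK6, CIPK29 and CIPK31.

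Set side by side, the classes had medians of -0.21 for calmodulins, -0.22 for CML, 0.01 for CBL, -0.10 for CIPK and -0.12 for CPK, beside 0.03 over all tested probe sets. The median over the 69 tested genes was -0.14, and 46 of them (66.7%) had a lower mean in RNAi, where 45.7% of all tested probe sets did. Every RNAi value was below every control value in 17 of the 69 (24.6%), against a background of 9.88%, and above in 1 (1.45%), against 12.5%. The 17 were 2 calmodulins, 5 CML genes, 4 CIPK genes and 6 CPK genes. These are descriptions, since the genes are not replicates, and no difference between the classes was tested.

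The calcium genes were mostly bright, so they were also set beside probe sets of like signal. In the brightest 25% of all tested probe sets 54.2% had lower means in RNAi, 15.2% had all RNAi values below all control values and the median was -0.03. Of the 38 calcium genes there, 30 (78.9%) had lower means, 11 had groups apart and lower, and their median was -0.16. In the next 25%, 10 of 19 calcium genes had lower means, where 40.9% of all probe sets did, and in the dimmer parts 4 of 9 and 2 of 3 did, against 41.0% and 46.8% of all probe sets there. This split by signal was chosen after the values were seen.

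The median of the tested genes, taken in each array against the mean of the control arrays, was -0.08, -0.14 and -0.21 in RNAi replicates 1, 2 and 3 and 0.01, 0.01 and 0.02 in control replicates 1, 2 and 3. The same over all probe sets was 0.01, 0.06 and 0.05 in RNAi arrays and 0.02, 0.01 and -0.01 in control arrays. In RNAi replicate 1 the number of genes below the control mean was 42 of 69, in RNAi replicate 2 it was 45 and in RNAi replicate 3 it was 47. The CBL genes had array medians of 0.25, -0.03 and -0.10 in RNAi arrays. RNAi replicate 1 was the highest of the 6 arrays for 15 of the 69 genes (21.7%) and the lowest for 17 (24.6%), near its 20.1% and 23.8% over all probe sets. RNAi replicate 2 was the highest for 2 (2.90%), against 18.9%, and RNAi replicate 3 was the lowest for 19 (27.5%), against 13.2%. Control replicate 3 was the highest for 22 (31.9%), where it was so at 12.9% of all probe sets.

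For 13 genes more than 1 probe set was tested, which gives a check inside each array. The signs were the same in 8 genes and opposite in 5 (CIPK2, CIPK23, CIPK31, CML4 and CPK18), and the range between probe sets of 1 gene had a median of 0.47 on the log2 scale. The 4 probe sets of CIPK10 were the closest, at 0.06 to 0.18. CIPK7 had the widest gap of the 13 genes. Its brighter probe set had 6611, 7130 and 7881 in RNAi arrays, against 8363, 7879 and 7831 in control arrays (log2 difference -0.16 ± 0.10), and its other one had 854, 1559 and 1813, against 3029, 2218 and 2802 (-0.98 ± 0.26, adjusted p = 0.107). The gene table gives CIPK7 the names TATA and THA4 as well, which belong to a chloroplast protein translocase, so which of these transcripts each probe set reads is uncertain.

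**Figure D5:**
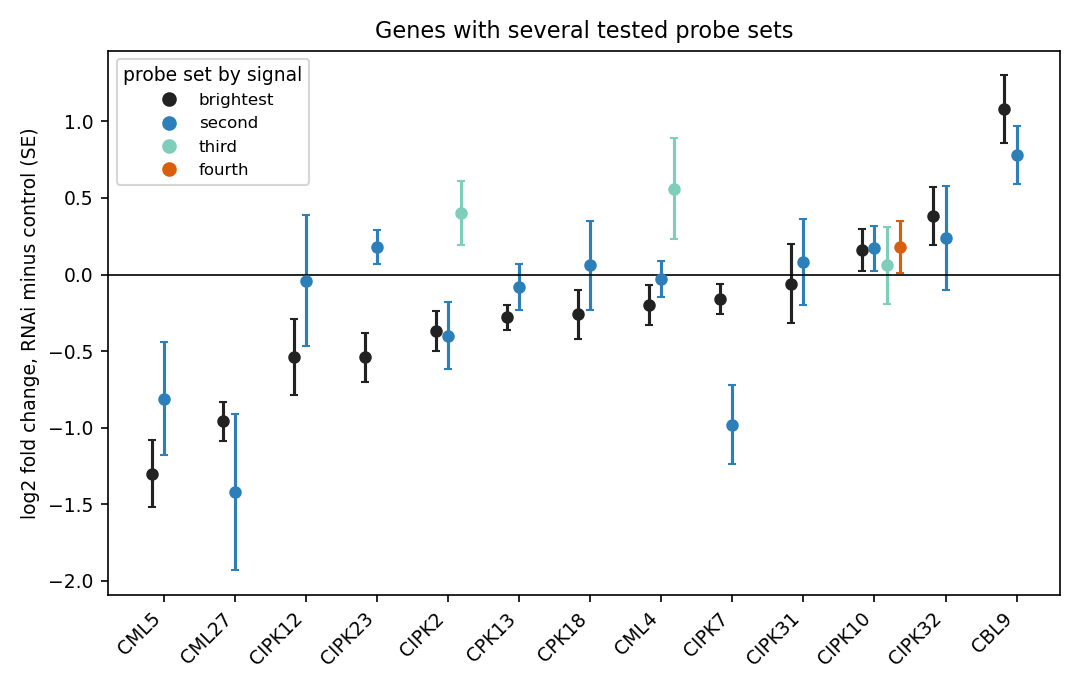
Log2 fold change (RNAi minus control, with its SE) of each tested probe set of the 13 genes with more than 1, coloured by the order of their signal. The probe sets of CBL9, CML5 and CML27 share a sign, those of CIPK23 lie on both sides of 0, and those of CIPK7 differ by 0.82.

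The 8 genes on the array that were not tested were CML17, CML28, CML32, CIPK30, CPK2, CPK6, CPK22 and CPK29. No array gave any of them a signal above 49.3, their groups overlapped in all 8, and no fold change is given for them. Their group means lay between 2.85 and 36.3. Another 15 genes had no probe set named for them and were not analysed here: CML2, CML21 and CML22, CBL1 and CBL7, CIPK3, CIPK9, CIPK13, CIPK15, CIPK27 and CIPK33, and CPK11, CPK14, CPK25 and CPK28. Several names are shared, since 10 family names were carried by more than 1 gene; CDPK1 was listed for 4 genes, CPK1, CPK4, CPK7 and CPK23, and each gene is called here by its CPK or CIPK number.

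Genes taken by family name as calcium channels, pumps, exchangers or binding proteins, or as possible partners and targets of the sensors, showed no call. Whether a sensor or kinase acts on each of them was not tested. Of 53 genes of such a list, named after families of channels, pumps, exchangers and targets, 40 were on the array and 34 tested. By limma 0 rose, 0 fell and 34 did not pass, 19 with higher and 15 with lower means around a median of 0.11, and SAM also called 0. With 1.09% of all tested probe sets called higher and 1.01% lower, a list of this size would hold few calls at the background rate. An unadjusted p under 0.05 was seen in 5 of the 34 (14.7%), against 15.6% of all tested probe sets. Among 11 channels, pumps and exchangers 6 had higher and 5 lower means. ACA7, of a family of calcium pumps that calmodulin activates in Arabidopsis, had 221, 186 and 163 in RNAi arrays, against 345, 345 and 272 in control arrays. These groups did not overlap, at a log2 difference of -0.71 ± 0.20 (adjusted p = 0.125).

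Among 22 possible partners and targets, mostly potassium transporters of the HAK family, 13 had higher and 9 lower means. HAK16 had 1327, 766 and 792 in RNAi arrays, against 538, 520 and 421 in control arrays (0.90 ± 0.23, adjusted p = 0.0898), and HAK22 had 643, 697 and 602, against 454, 399 and 494 (0.51 ± 0.15, adjusted p = 0.150). All RNAi values of both genes were higher than the control values, and neither passed. The HAK22 probe set is marked as reading several genes, and the specific one gave 0.29 ± 0.32 (adjusted p = 0.713). The calcium channel gene TPC1 had 3346, 3780 and 3579 in RNAi arrays, against 4578, 3675 and 4034 in control arrays, and CCAMK, a calcium and calmodulin-dependent kinase of root symbiosis, had 714, 520 and 680, against 521, 530 and 515. The groups overlapped in both. The calreticulin gene CRT1, for a calcium store protein of the endoplasmic reticulum, had 3625 in RNAi replicate 1 and 10992 and 9986 in the other RNAi arrays, against 8002 to 9488 in control arrays.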

How the data were processed

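The deposited intensity values, 1 signal per probe set and array on a linear scale, come from the authors' use of GCOS 1.2, as named in the submitters' processing notes. No source used here says how probes were summarised or scaled. The trimmed mean of the deposited intensity (2% off each end) reached 500.1 in control replicate 3, while the other 5 arrays lay at 99.86 to 117.8, so each array was scaled to 500, 16 was added and log2 taken. Of 57194 probe sets that were not controls or reporters, the lower 50% by mean log2 signal were left out, and 28597 were tested (R 4.3.3, limma 3.58.1: lmFit and trended eBayes; p-values were two-sided and adjusted by Benjamini-Hochberg over all probe sets). The lowest mean tested was a signal of 36.1. Precision is limited by having 3 arrays a group.

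Genes were named through the platform annotation and a RefSeq table (ASM3414082v1); 22436 probe sets had 1 gene and 95 several. Each gene entered with the probe set of highest mean signal. Members and lists were chosen with earlier results of these data known. Named are the called genes and, per class, the 3 smallest p and the 3 highest and lowest fold changes, plus all calmodulins and the 3 smallest p of the transport and target list; others were added for groups that did not overlap, probe sets that disagreed or a known role, after their values were seen. Alternatives were the scaling, pseudocount (1 and 64), filter, replicate block, untrended eBayes, SAM, dropping arrays one at a time, a separate test of each probe set, probe sets that read several genes, the lowest probe set of a gene, and 1 probe set per gene. The replicate number is also the fluidics module in all 6 arrays, per the file headers, so it was used as a block and differences within modules are given; same-numbered arrays did not deviate together (correlations -0.0452, 0.00838 and 0.00207). The fits were tested on simulated data.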

Additional observations from a re-analysis of the deposited data

How the results depend on the processing

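The count of calcium genes lower in RNAi, 3 as reported, was 0 on the signals as deposited, without control replicate 2 and with Welch's test, 6 without RNAi replicate 1, 1 with the lowest probe set of each gene, and 2 or 3 otherwise; leaving out 1 array gave 0 to 6. The count higher, 1 as reported, was 0 in all settings but a pseudocount of 64, a filter of 25% and 1 probe set per annotated gene, where it stayed at 1; leaving out any 1 array gave 0. Over the whole table, 601 calls became 37 on the signals as deposited, 394 with no filter, 303 without a trend in eBayes, 0 with Welch's test (unadjusted, 3001 lay under 0.05 with it and 4471 with limma) and 233 to 902 without 1 array. The share of calls that were higher, 51.9%, was 64.9% on the signals as deposited, 63.8% with SAM, 61.4% without a trend, 61.7% without control replicate 1 and 70.8% without control replicate 2; it was 42.7% with 1 probe set per annotated gene, 48.4% without probe sets that read several genes and 49.0% with quantile normalization, where most calls were lower. The deposited scale moved the median of all probe sets to -0.52 and that of the calcium genes to -0.76, a gap of -0.24 against -0.17 as reported. On that scale 68 of the 69 tested calcium genes had lower means, against 46 as reported. Of the genes named for their p, fold change or class, signs turned there for CBL10 (-0.56), CBL2 (-0.58), CIPK18 (-0.03), CIPK32 (-0.25), CIPK5 (-0.33), CML20 (-0.20), CML24 (-0.21), CML3 (-0.16), CPK17 (-0.47), CPK21 (-0.32), CPK23 (-0.24) and HAK22 (-0.13), none of them called. Other reversals among the genes so named, also not called, were those of CAM2 (0.01) and CBL2 (-0.01) with quantile normalization, of CIPK23 with its lowest probe set (0.18), and, where 1 array was left out, of CAM2 (range -0.11 to 0.06), CBL2 (-0.11 to 0.15), CBL6 (-0.39 to 0.20), CBL10 (-0.17 to 0.29), CPK21 (-0.02 to 0.60) and CPK23 (-0.02 to 0.64). With the lowest probe set of each gene, 41 of all 69 tested calcium genes had lower means. The cause of the reversals was not tested. With the replicate block, which is also the fluidics module, 2 calcium genes (CML15 and CML27) were lower, 0 higher and 424 probe sets called in all, and same-numbered arrays did not deviate together. The count of transport and target genes called was 0 in each setting.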
